A study of Mus musculus with 6 samples.

Results

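Fc gamma receptors bind the constant part of IgG and pass the signal of an antibody-coated particle into the cell. The 5 genes described here, Fcgr1, Fcgr3, Fcgr4, Fcgr2b and Fcer1g, were taken by their symbols from 55487 genes in a count table, with 1 row for each Ensembl identifier. They were measured in microglia, the macrophages that live in the brain, from 6 female mice aged 20 months. The control group held 3 mice of genotype Atg7-fl/fl, in which Atg7 is floxed and no Cre is present. The knockout group held 3 mice of genotype Atg7-fl/fl;Cx3cr1-CreERT2, which carry the same floxed alleles and a Cre recombinase fused to an estrogen receptor domain at the Cx3cr1 locus; the controls were littermates. Atg7 encodes an enzyme needed to form autophagosomes. Presence of Cre and loss of Atg7 therefore went together, Cx3cr1 is also active in macrophages other than microglia, and the labels name no inducing drug or time since deletion. Live cortical cells with intermediate CD45 and positive CD11b were sorted from each mouse, and each mouse gave 1 library.

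Fcgr1 is the high-affinity receptor for monomeric IgG, whereas Fcgr3 and Fcgr4 bind IgG mainly as immune complexes. These receptors activate the cell through Fcer1g, the common gamma chain, whose immunoreceptor tyrosine-based activation motif (ITAM) recruits the kinase Syk and starts phagocytosis. Fcgr2b carries an inhibitory motif (ITIM) instead, recruits the phosphatase SHIP1 and sets the threshold for the others. Microglia are known to express activating and inhibitory members together, and the receptors take part in antibody-driven clearance of amyloid.

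All 5 genes were detected in every library at levels that overlapped between the groups, and none was called different. Fcgr3 and Fcer1g were the most abundant, Fcgr1 and Fcgr2b lay several times lower, and Fcgr4 was scarce. In CPM (read counts scaled to the library size, with TMM factors), Fcgr3 had a mean of 1924 ± 129 (SD, n = 3) in the controls and 1902 ± 418 in the knockouts. Fcer1g had 1614 ± 232 and 1669 ± 125 CPM. With edgeR's quasi-likelihood test over 15787 genes, 0 of the 5 were called at an adjusted p under 0.05, and 0 had an unadjusted p under 0.05, a level that 4.32% of all genes reached; DESeq2 and limma voom also called 0. The share called among all genes tested was 0.0443% with edgeR, 0.527% with DESeq2 and 0.095% with limma voom, so a count of 0 among 5 lies near the background. The groups overlapped in all 5, whereas they did not overlap in 11.1% of all genes tested.

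The paralogs Fcgr2b and Fcgr3 have opposite signalling roles but nearly the same ligand-binding part, which bears on how their reads were assigned. The longest stretch identical between their protein-coding transcripts in GENCODE M21 was 129 bases long and lay inside the coding sequence of both; it is shown because a read falling wholly within it cannot be given to either gene. All letters are shared, so none is in capitals.
Fcgr2b and Fcgr3 shared stretch: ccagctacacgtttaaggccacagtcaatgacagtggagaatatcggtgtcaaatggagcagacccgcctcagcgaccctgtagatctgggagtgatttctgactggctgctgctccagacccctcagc
Of the distinct 50-base words in Fcgr3 transcripts, 9.58% also occurred in Fcgr2b, and of those in Fcgr2b transcripts 2.92% occurred in Fcgr3. With words of 100 bases these shares were 2.54% and 0.753%. Another 4.03% of the 50-base words of Fcgr2b occurred only in genes other than Fcgr3, whereas Fcgr1, Fcgr4 and Fcer1g shared 0 such words with any other gene. The read length and the treatment of reads that match several genes are not given in the sources used here, so the levels of Fcgr2b and Fcgr3 carry this uncertainty in both groups.

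Promoters of the 3 activating receptors are shown because a purine-rich motif of the myeloid factor PU.1 occurs in each. The windows run from 250 bases before to 50 after the start of transcription and come from RefSeq on GRCm38.p6, whereas the submitters' processing notes name GRCm39. Capitals mark GAGGAA, which lies on the opposite strand in all 3 and so reads TTCCTC here, and, in Fcgr1 alone, also TTCNNNGAA, a palindromic motif. Fcgr1 lies at chr3:96293920-96294219 on the minus strand, Fcgr3 at chr1:171059354-171059653 on the minus strand and Fcgr4 at chr1:171018676-171018975 on the plus strand.
Fcgr1: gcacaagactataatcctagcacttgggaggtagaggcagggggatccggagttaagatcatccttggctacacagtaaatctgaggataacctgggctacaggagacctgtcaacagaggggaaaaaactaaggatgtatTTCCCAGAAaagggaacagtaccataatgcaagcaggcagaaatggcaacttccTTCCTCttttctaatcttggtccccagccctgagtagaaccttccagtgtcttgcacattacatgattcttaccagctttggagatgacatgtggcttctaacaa
Fcgr3: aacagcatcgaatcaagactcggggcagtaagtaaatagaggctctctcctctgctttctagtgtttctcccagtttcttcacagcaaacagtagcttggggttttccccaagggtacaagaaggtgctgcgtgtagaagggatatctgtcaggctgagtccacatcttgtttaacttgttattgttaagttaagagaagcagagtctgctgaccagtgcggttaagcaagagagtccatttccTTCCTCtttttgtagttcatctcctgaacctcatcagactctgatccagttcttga
Fcgr4: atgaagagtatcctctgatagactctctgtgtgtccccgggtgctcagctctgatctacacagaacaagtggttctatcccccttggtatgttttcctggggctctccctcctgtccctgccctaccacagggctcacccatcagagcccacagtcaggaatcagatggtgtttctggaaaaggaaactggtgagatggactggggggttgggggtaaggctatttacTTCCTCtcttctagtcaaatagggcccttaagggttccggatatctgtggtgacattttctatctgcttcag
GAGGAA starts at position -55 in Fcgr1, -6 in Fcgr3 and -22 in Fcgr4, counted from the start of transcription. It occurred in 28.3% of 32851 promoters of the same length, and TTCNNNGAA in 8.30%. The windows of Fcgr2b and Fcer1g held neither. A joint motif of PU.1 and IRF factors (GGAA and GAAA parted by any 2 bases) was found in Fcgr2b and in 2.72% of all promoters. An IRF motif (GAAA and GAAA parted by any 2 bases) was found in Fcgr4 and in 3.44% of all, and TATAAA in 0 of the 5 genes against 13.6% of all. Both strands were searched, and no matches of different motifs overlapped. These matches describe letters in a window and say nothing of binding.

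Library depth was uneven and touches the scarcest member most. Totals lay between 1254380 reads in control 3 and 39389527 in control 1, with knockout 2 at 3789208 and the other 4 libraries at 21282335 or more. A count of 3 reads corresponded to 2.39 CPM in control 3 and 0.0762 CPM in control 1. Labels were checked with Atg7, at 56.6 to 66.4 CPM in control and 23.7 to 26.5 CPM in knockout libraries. Cx3cr1 was also checked, at 9581 to 11260 CPM in control and 4126 to 5611 CPM in knockout libraries. EdgeR called both lower (log2 fold changes -1.33 and -1.17, edgeR adjusted p = 0.0147 and 0.00126). Lower Cx3cr1, presence of Cre and loss of Atg7 went together, and their effects cannot be told apart. All 12 microglial markers listed, among them P2ry12, Tmem119 and Sall1, had reads in every library, with sums of 59527 to 66860 CPM in control and 54074 to 59900 CPM in knockout libraries. In bulk RNA, fewer cells of a type and less RNA per cell cannot be told apart.

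Fcgr1, the high-affinity receptor (ENSMUSG00000015947), differed little between the groups. Its values were 451, 550 and 418 CPM in control mice 1, 2 and 3, against 445, 412 and 530 CPM in knockout mice 1, 2 and 3. Control 2 was the highest library and knockout 2 the lowest, so the groups overlapped over nearly their whole range. The log2 fold change of knockout over control was -0.034 (SE 0.15, 95% interval -0.36 to 0.30, edgeR adjusted p = 0.999), which spans folds of 0.777 to 1.23.

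Fcgr3, a low-affinity activating receptor (ENSMUSG00000059498), had 1818, 2067 and 1887 CPM in control mice 1, 2 and 3, against 1747, 1584 and 2376 CPM in knockout mice 1, 2 and 3. Knockout 3 stood above all other libraries and knockouts 1 and 2 below all controls, so the knockouts spread on both sides of the control range. Their SD was 418 CPM, against 129 CPM in the controls. The log2 fold change was -0.017 (SE 0.15, 95% interval -0.34 to 0.30, edgeR adjusted p = 0.999).

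Fcgr4, another activating receptor (ENSMUSG00000059089), was the least abundant member. Its values were 21.3, 35.7 and 40.1 CPM in control mice 1, 2 and 3, against 25.8, 24.4 and 31.8 CPM in knockout mice 1, 2 and 3. All 3 knockouts lay within the range of the controls. Control 3 rested on 51 reads, with an exact 95% Poisson interval of 29.8 to 52.7 CPM, and knockout 2 on 94 reads, with 19.7 to 29.9 CPM; these intervals cover counting error only. The log2 fold change was -0.21 (SE 0.26, 95% interval -0.76 to 0.33, edgeR adjusted p = 0.999), the widest interval of the 5. It was 0.0068 without control 3 and knockout 2, the libraries of lowest depth, -0.065 without control 3 alone, -0.10 without control 2, -0.45 without control 1 and -0.36 without knockout 3, so its size rested on single libraries.

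Fcgr2b, the inhibitory receptor (ENSMUSG00000026656), had 387, 466 and 347 CPM in control mice 1, 2 and 3, against 357, 323 and 413 CPM in knockout mice 1, 2 and 3. Control 2 was highest and knockout 2 lowest, as for Fcgr1. The log2 fold change was -0.14 (SE 0.16, 95% interval -0.47 to 0.20, edgeR adjusted p = 0.999). It was -0.0040 without control 2 and -0.073 without knockout 2, and -0.24 without control 3 and -0.26 without knockout 3.

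Fcer1g, the signalling chain (ENSMUSG00000058715), had 1604, 1851 and 1388 CPM in control mice 1, 2 and 3, against 1640, 1806 and 1560 CPM in knockout mice 1, 2 and 3. The 3 knockouts all fell between the lowest and the highest control. With a log2 fold change of 0.048 (SE 0.14, 95% interval -0.24 to 0.34, edgeR adjusted p = 0.999), Fcer1g was the member with the narrowest interval.

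Across the 5 genes, 1 log2 fold change was above 0 and 4 were below, with a median of -0.034, beside a median of 0.021 over all genes tested. The lowest rank of a member by unadjusted p was 5882 of 15787. As folds, the lower bounds of the 95% intervals were 0.777 for Fcgr1, 0.793 for Fcgr3, 0.591 for Fcgr4, 0.721 for Fcgr2b and 0.846 for Fcer1g, so that each gene had its own limit on how large a drop the data allow. The plot of CPM by library shows the overlap of the groups, and the plot of fold changes shows each interval around 0.

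**Figure D1:**
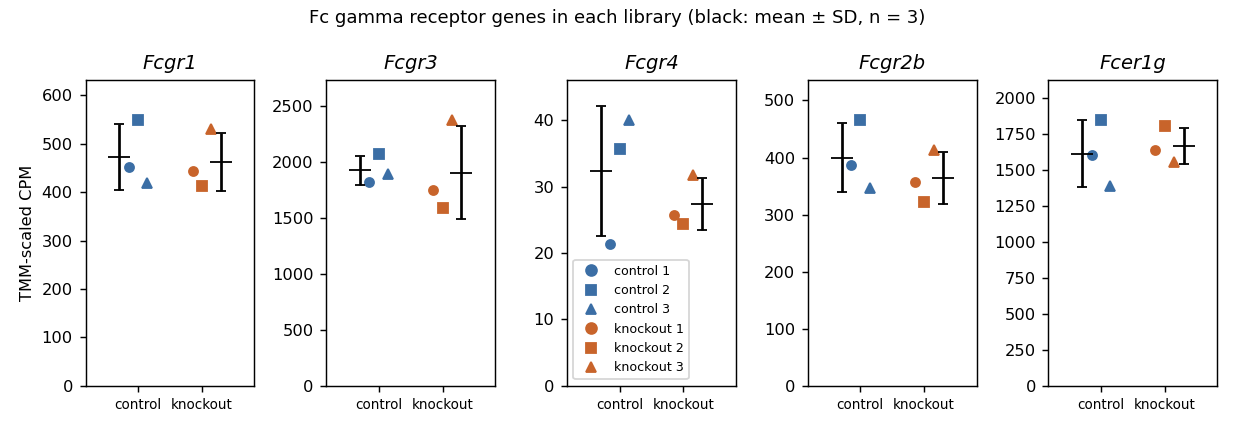
TMM-scaled CPM of Fcgr1, Fcgr3, Fcgr4, Fcgr2b and Fcer1g (vertical axis, starting at 0) in 3 control and 3 knockout libraries; black marks are the mean ± SD. In each gene the knockouts overlap the controls, and the Fcgr3 value of knockout 3 stands highest, at 2376 CPM.

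**Figure D2:**
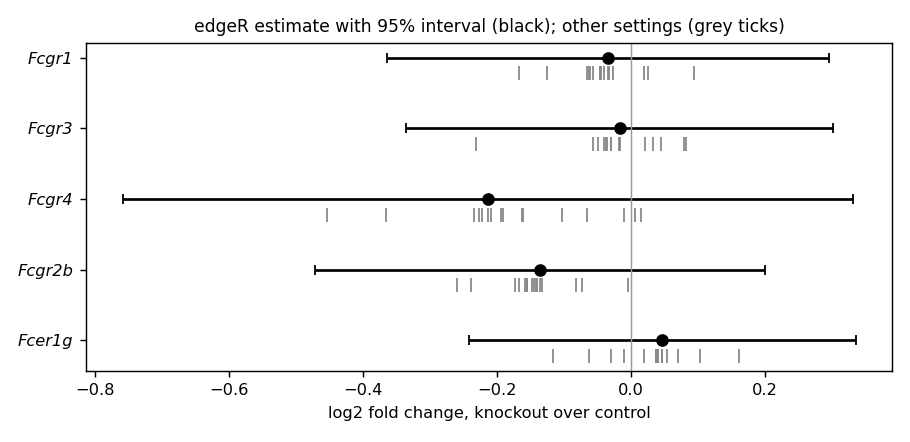
Log2 fold change of knockout over control for the 5 genes, with the edgeR estimate and 95% interval in black and the estimates under 16 other settings as grey ticks. Every interval spans 0, and that of Fcgr4 is the widest, from -0.76 to 0.33.

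Levels of different genes can be set side by side only per length. Per kilobase of annotated exon in GENCODE M21, mean control levels were 1847 CPM ± 265 (SD, n = 3) for Fcer1g, 1108 ± 74.0 for Fcgr3, 183 ± 26.5 for Fcgr1, 69.1 ± 10.5 for Fcgr2b and 25.8 ± 7.82 for Fcgr4. In the knockouts the same order gave 1909 ± 143, 1096 ± 241, 179 ± 23.5, 62.9 ± 7.89 and 21.7 ± 3.11 CPM per kilobase. Neighbours in this order differed by more than their SDs, but the order of 2 pairs depended on the length used. With the shortest annotated coding transcript in place of all exons, Fcgr2b came to 369 CPM per kilobase in the controls, above Fcgr1 at 183. On the same basis Fcgr3 came to 3518 and Fcer1g to 2395. Which isoforms were present cannot be read from gene counts, so the order within these pairs was not settled, whereas Fcgr4 was lowest with either length.

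The balance of activating to inhibitory receptors sets how cells answer immune complexes, and a ratio within a library does not depend on library scaling. Reads of Fcgr1 per read of Fcgr2b were 1.17, 1.18 and 1.21 in control mice 1, 2 and 3, against 1.25, 1.28 and 1.28 in knockout mice 1, 2 and 3. Every knockout lay above every control, by little: the mean log2 ratio was 0.24 ± 0.025 (SD, n = 3) in the controls and 0.34 ± 0.022 in the knockouts, a difference of 0.10 (exact two-sided permutation p = 0.1, adjusted p = 0.5 over 5 ratios). An exact test of 3 against 3 cannot go below p = 0.1. The counting interval of control 3, from 532 and 441 reads, was 1.06 to 1.37 (exact binomial, 95%) and spanned all 3 knockout values. That of knockout 2, 1.19 to 1.38, overlapped those of control 1, 1.14 to 1.19, and control 2, 1.16 to 1.20. Those of knockout 1, 1.22 to 1.28, and knockout 3, 1.25 to 1.32, lay above those of controls 1 and 2. All these intervals leave out the spread between mice.

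Ratios of Fcgr3 and Fcgr4 to Fcgr2b overlapped between the groups. Fcgr3 to Fcgr2b was 4.70, 4.43 and 5.45 in control mice 1, 2 and 3, against 4.90, 4.91 and 5.75 in knockout mice 1, 2 and 3, a log2 difference of 0.095 (exact permutation p = 0.5, adjusted p = 0.75). Control 3 and knockout 3 were the highest of their groups. Fcgr4 to Fcgr2b was 0.0550, 0.0765 and 0.116 in the controls and 0.0722, 0.0756 and 0.0768 in the knockouts, a log2 difference of -0.072 (exact permutation p = 0.8, adjusted p = 0.8). The controls were spread more than 2-fold, with the knockouts between them; without control 3 the difference was 0.21. Summed per kilobase, the 3 activating receptors stood at 18.5, 17.8 and 21.4 times Fcgr2b in the controls and 19.5, 19.6 and 22.4 times in the knockouts (exact permutation p = 0.4, adjusted p = 0.75). These levels use all annotated exons: the mean control value was 19.2 ± 1.91 (SD, n = 3), against 14.6 ± 1.48 with the longest and 10.2 ± 1.07 with the shortest coding transcript of each gene, 2 lengths added after the data had been examined.

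Fcer1g and Tyrobp (DAP12) are the ITAM adaptors of most activating receptors in microglia, the latter serving Trem2. Tyrobp had 1043 CPM ± 242 (SD, n = 3) in the controls and 1005 ± 91.5 in the knockouts. Reads of Fcer1g per read of Tyrobp were 1.56, 1.43 and 1.71 in control mice 1, 2 and 3, against 1.80, 1.78 and 1.43 in knockout mice 1, 2 and 3. Knockout 3 was the lowest library of all and the other 2 knockouts the highest (log2 difference 0.087, exact permutation p = 0.6, adjusted p = 0.75).

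**Figure D3:**
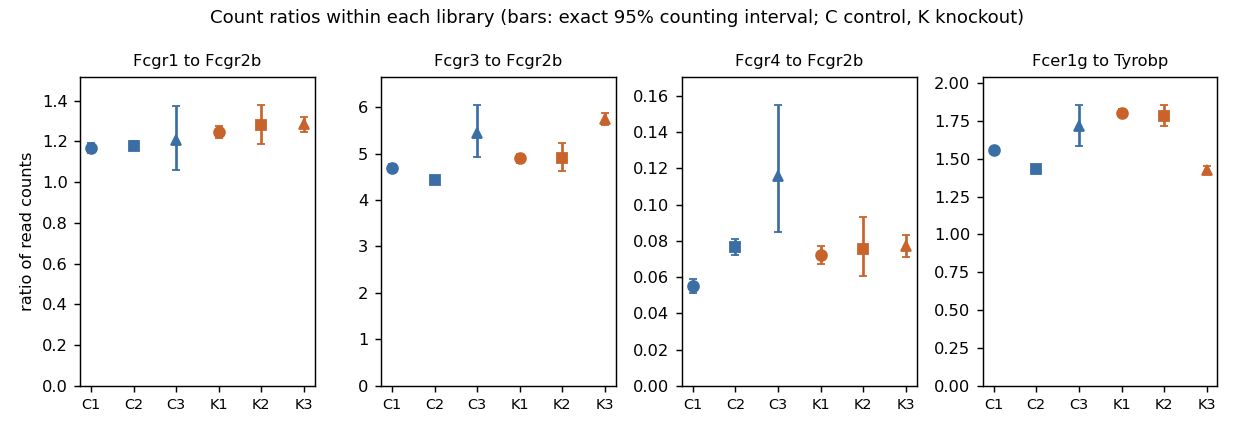
Ratios of read counts within each library (vertical axes start at 0), with exact 95% binomial counting intervals; C1 to C3 are controls and K1 to K3 knockouts. The Fcgr1 to Fcgr2b ratio is 1.17 to 1.21 in the controls and 1.25 to 1.28 in the knockouts, while the other 3 ratios overlap.

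Fcgr2b, Fcgr4 and Fcgr3 follow each other on chromosome 1, and 7 protein-coding genes separate Fcgr3 from Fcer1g in RefSeq; Fcgr1 is on chromosome 3. Of 13 protein-coding genes between the chromosome 1 members or within 3 places of them, 8 were tested. EdgeR called 0 of these, and 0 had an unadjusted p under 0.05, against 0.0443% and 4.32% of all genes tested. Both counts lie near the background. Among them, picked once values were known, Sdhc, a subunit of respiratory complex II, had 110 CPM ± 14.4 (SD, n = 3) in the controls and 123 ± 22.6 in the knockouts. B4galt3, a galactosyltransferase gene, had 83.6 ± 12.1 and 65.5 ± 10.4 CPM. Fcrla and Nr1i3, of the same region, were below the expression filter.

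Other genes that receive, pass on or restrain the signal were read from lists by role. Together the 8 lists held 132 genes, of which 103 were tested. EdgeR called 0 of them, against 0.0443% of all genes tested. At an unadjusted p below 0.05 there were 4 higher and 2 lower genes, where 2.34% and 1.98% of all genes tested were higher and lower. DESeq2 called 2, against 0.527% of all genes tested, and limma voom 0, against 0.095%. The groups did not overlap in 7 of the 103, or 6.80%, against 11.1% of all genes tested.

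Receptors for immunoglobulin outside the gamma family were few in these cells. Of 14 listed, 5 passed the expression filter, and all 5 had log2 fold changes below 0, with a median of -0.27. Fcrls, an Fc receptor-like gene typical of mouse microglia, had 5566, 4747 and 4356 CPM in control mice 1, 2 and 3, against 4306, 4109 and 3755 CPM in knockout mice 1, 2 and 3. Each knockout was below each control, although the lowest control and the highest knockout nearly met (log2 fold change -0.27, SE 0.12, edgeR adjusted p = 0.999). Without control 1 its log2 fold change, and with it the median of the list, was -0.16. Fcrl1, better known from B cells, had 168 CPM ± 13.5 (SD, n = 3) and 137 ± 8.73 (log2 fold change -0.29, edgeR adjusted p = 0.999). Fcgrt, which encodes the neonatal receptor that recycles IgG, had 286 ± 31.5 and 274 ± 22.9 CPM; it was chosen after its values were seen, as were the further list members given below as mean CPM alone. The IgE receptor chain gene Fcer1a had 0 reads in all 6 libraries.

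Adaptors and receptors tied to ITAM signalling had a median log2 fold change of 0.60 over 9 tested members of 14. Of the tested members, 6 were above 0. The median was the value of Clec7a, given below. Clec4d, Clec4e and Clec4n, lectins that pair with Fcer1g, had means of at most 3.76 CPM in either group. The median was 0.38 without knockout 1, 0.38 with the stricter expression filter and 0.80 without control 2. Over 16 other settings it ran from 0.38 to 0.80. Knockout 1 also had the highest sums of neutrophil and monocyte markers, 2000 and 189 CPM, and the means of these sums were 295 and 37.3 CPM in control against 932 and 97.4 CPM in knockout libraries; their part was not tested. Clec7a, the beta-glucan receptor Dectin-1, had 47.0, 84.9 and 54.2 CPM in control mice 1, 2 and 3, against 113, 100 and 71.5 CPM in knockout mice 1, 2 and 3. Knockout 3 lay below control 2, so the groups overlapped (log2 fold change 0.60, SE 0.24, edgeR adjusted p = 0.999). Cd300lb had 8.24 CPM ± 1.95 (SD, n = 3) and 16.5 ± 9.79 (log2 fold change 1.06, edgeR adjusted p = 0.999). Trem2, the lipid-sensing receptor, had 1918 ± 384 and 1785 ± 85.8 CPM.

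Kinases and adaptors next to the ITAM had a median of -0.046 over 15 tested members of 17. Syk, which docks on the phosphorylated ITAM, had 107 CPM ± 9.20 (SD, n = 3) in the controls and 91.5 ± 18.4 in knockout libraries (log2 fold change -0.23, SE 0.18, edgeR adjusted p = 0.999). Lyn, the Src-family kinase that phosphorylates ITAM and ITIM alike, had 775 ± 36.6 and 791 ± 64.9 CPM. Fgr, of the same family, had 22.8 ± 4.51 and 28.3 ± 7.32 CPM (log2 fold change 0.32, edgeR adjusted p = 0.999). The adaptor genes Lcp2 (SLP-76) and Vav1 had 448 ± 15.8 and 433 ± 56.7 CPM, and 397 ± 22.2 and 380 ± 38.1 CPM.

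Among 21 tested of 23 enzymes that make or read lipid messengers, the median was -0.077. Prkcd, protein kinase C delta, had 195, 226 and 158 CPM in control mice 1, 2 and 3, against 126, 125 and 137 CPM in knockout mice 1, 2 and 3. All knockouts lay below all controls, and control 3 was nearest to them. The log2 fold change of Prkcd was -0.58 (SE 0.17, edgeR adjusted p = 0.543); DESeq2 called it, with an adjusted p of 0.0358, and limma voom did not (adjusted p = 0.130). Pld1, a phospholipase D gene, had 124 CPM ± 6.99 (SD, n = 3) and 97.4 ± 22.6 (log2 fold change -0.35, edgeR adjusted p = 0.999). Plcg2, the phospholipase activated below Syk, had 152 ± 5.91 and 133 ± 32.5 CPM.

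Genes of the phagocytic cup, in which actin pushes the membrane around a particle, had a median of 0.060, with all 29 listed members tested and 18 above 0. Cdc42 and Rac2, small GTPases that start actin assembly, had 1201 CPM ± 172 (SD, n = 3) and 1383 ± 122, and 393 ± 61.2 and 440 ± 34.1. Wasl, the N-WASP gene, had 10.9, 8.01 and 11.8 CPM in control mice 1, 2 and 3, against 13.6, 44.2 and 12.1 CPM in knockout mice 1, 2 and 3. Its high mean in the knockouts came from knockout 2, a library of low depth (log2 fold change 1.19, SE 0.49, edgeR adjusted p = 0.999). Iqgap1, a scaffold gene, had 27.3 ± 2.53 and 36.6 ± 10.0 CPM (log2 fold change 0.43, edgeR adjusted p = 0.999).

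Inhibitory phosphatases and receptors, the partners of Fcgr2b, had a median of -0.067 over 14 tested members of 14. Inpp5d, which encodes SHIP1, had 812 CPM ± 15.3 (SD, n = 3) and 727 ± 158, and Ptpn6, which encodes SHP-1, 433 ± 19.6 and 464 ± 48.2. Pirb, an ITIM receptor for MHC class I, had 30.1, 50.8 and 47.9 CPM in control mice 1, 2 and 3, against 72.0, 72.5 and 93.2 CPM in knockout mice 1, 2 and 3. All knockouts lay above all controls. The log2 fold change of Pirb was 0.90 (SE 0.22, edgeR adjusted p = 0.290); DESeq2 called it, with an adjusted p of 0.0301, and limma voom did not (adjusted p = 0.145). Pirb belongs to a family of near-identical genes, so the assignment of its reads is uncertain. Lilrb4a had 1.63 ± 1.32 and 3.05 ± 0.726 CPM (log2 fold change 1.28, edgeR adjusted p = 0.999).

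The factors whose motifs were searched in the promoters, and others that drive Fc receptor genes, had a median of -0.088 over 9 tested of 9. Spi1, which encodes PU.1, had 43.7 CPM ± 5.96 (SD, n = 3) and 40.3 ± 3.64, and Irf8 516 ± 83.7 and 526 ± 75.1. Irf1, an interferon-induced factor, had 80.1, 90.2 and 78.6 CPM in control mice 1, 2 and 3, against 90.6, 94.8 and 101 CPM in knockout mice 1, 2 and 3. The groups did not overlap, with control 2 and knockout 1 nearly equal (log2 fold change 0.20, SE 0.16, edgeR adjusted p = 0.999). Stat3 had 153 ± 7.74 and 138 ± 27.3 CPM (log2 fold change -0.14, edgeR adjusted p = 0.999).

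Of 12 genes in the ligand list, immunoglobulin chains and pentraxins, 1 was tested. This gene, Ighm, encodes the heavy chain of IgM and not of IgG. Ighm had 638 CPM ± 84.6 (SD, n = 3) in the controls and 574 ± 50.5 in knockout libraries (log2 fold change -0.15, edgeR adjusted p = 0.999). The IgG heavy chain genes Ighg1, Ighg2b, Ighg2c and Ighg3 had 1, 20, 0 and 1 reads in all 6 libraries together, and Igkc, the kappa light chain gene, had 2. The plot of list members shows these groups beside the receptors.

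**Figure D4:**
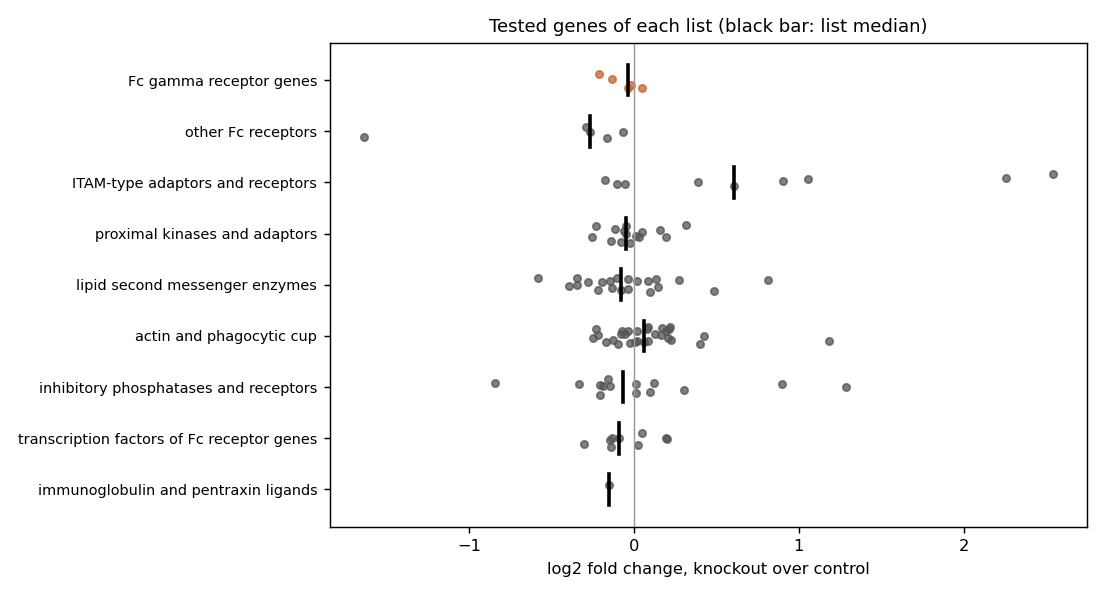
Log2 fold change of knockout over control (horizontal axis) for each tested gene of the 5 Fc gamma receptor genes and the 8 lists by role; vertical position within a row is arbitrary and black bars are medians. The 5 receptor genes lie between -0.21 and 0.048, and the list labelled ITAM-type adaptors and receptors has the highest median, 0.60.

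Monocytes, neutrophils and border-associated macrophages also express Fc gamma receptors, and the sort gate is meant to leave most of them out. Neutrophil genes, 8 of 8 with reads, summed to 44.1, 361 and 480 CPM in control mice 1, 2 and 3, against 2000, 652 and 142 CPM in knockout mice 1, 2 and 3. Their defining marker Ly6g had 0 reads in control 2, control 3 and knockout 2. Fcgr4 had 21.3, 35.7 and 40.1 CPM in control mice 1, 2 and 3, and 25.8, 24.4 and 31.8 CPM in knockout mice 1, 2 and 3. Its relation to the neutrophil sums was not tested. The 8 genes listed for monocytes summed to 10.1, 47.7 and 54.2 CPM and to 189, 78.2 and 24.5 CPM in the same order. Chil3 gave the largest part, with means of 20.97 CPM in control and 55.8 CPM in knockout libraries, followed by Cd177 at 5.36 and 20.3 CPM. Ccr2 had 5.13 and 8.54 CPM, Ly6c2 1.26 and 4.53 CPM, Fn1 1.54 and 1.63 CPM, and Vcan 0.629 and 0.270 CPM. Which cells gave the reads of this list was not tested. Border-associated macrophage genes, 10 of 10 with reads, summed to 416, 564 and 508 CPM and to 672, 622 and 613 CPM, most of it from Stab1, at 448 and 472 CPM on average. Without Stab1, which was set aside once the values were known, the other 9, among them Mrc1 and Cd163, gave 15.3, 40.4 and 89.6 CPM and 261, 167 and 65.0 CPM. Every knockout sum of all 10 border-associated macrophage genes lay above every control sum. EdgeR called 0 genes of these 3 lists, against 0.0443% of all genes tested. Of the genes tested, groups did not overlap in 3 of 10 border-associated macrophage, 2 of 7 monocyte and 0 of 7 neutrophil genes. The share over all genes tested was 11.1%.

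Lymphocyte markers were uneven. The B cell genes Ms4a1 and Mzb1 and the NK cell gene Ncr1 had 0 reads in all libraries, and the 9 T and NK cell genes summed to at most 3.84 CPM. Cd79b made up nearly all of the B cell sum, with means of 73.7 CPM in control and 57.7 CPM in knockout libraries. Dendritic cell genes and endothelial genes each summed to at most 83.3 CPM in any library. Genes of astrocytes, neurons and oligodendrocytes summed to 319 to 373 and 324 to 414 CPM. The part of these cells in the values of the Fc gamma receptor genes was not tested.

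Genes whose log2 CPM was most like that of each member over the 6 libraries were listed from 5624 protein-coding genes with a mean of at least 20 CPM. For Fcgr1 they were Vav2, Rhoq and Rps6ka1 (Pearson r of 0.986, 0.985 and 0.985). Those most like Fcgr3 were Dennd4b, Paqr7 and Pou2f2 (0.994, 0.990 and 0.982). Fcgr4 was followed most closely by Plekho2, Peli1 and Hspa8 (0.973, 0.972 and 0.971), and Fcgr2b by Thrsp, Lgals9 and Itprid2 (0.993, 0.991 and 0.986). Fcer1g ran with the mitochondrial genes mt-Nd1 and mt-Nd4 and with Fech (0.992, 0.990 and 0.990). With 6 points chosen from so many genes, such values describe these libraries, which share depth and scaling, and no list held another member.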

How the data were processed

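The deposited table holds raw read counts per gene from RNA-seq of 6 libraries; the submitters' processing notes name STAR, featureCounts, Salmon and the build GRCm39, without their order. The annotation and strand setting are not given in the sources used here. Reads carried no molecular identifiers in the labels' protocols, so copies of the same molecule could not be told apart. The Poisson and binomial intervals treat each read as independent and may be too narrow. They leave out the spread between mice, which the edgeR intervals take in. Of 55774 rows, 287 repeated an identifier and were dropped; 0 rows named no gene and 0 columns belonged to other samples. Of the identifiers, 99.5% occurred in GENCODE M21, used for lengths and shared sequence. Titles number the libraries of a group as biological replicates, and p-values measure the spread between these libraries.

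Counts were fitted with edgeR 4.0.16 in R 4.3.3 (default filter, TMM, robust quasi-likelihood, group as the only term), with Benjamini-Hochberg adjustment over 15787 genes and a threshold of 0.05. Standard errors are the log2 fold change over the root of F, and intervals are 95%. Ratios were tested by exact permutation. Alternatives were DESeq2 1.42.0, limma 3.58.1 (voom, also with library weights), other scalings and filters, no robust option, the replicate block, and libraries left out. The steps were tested on simulated data. Libraries within a group differed beyond sampling noise (chi-square per degree of freedom of at least 39.4).

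Named genes were the 5 members, the called members of each list or else the 2 with the smallest unadjusted p, marker sums, and 3 like genes for each member; others are said to be chosen after their values were seen. Members and lists were chosen with earlier results of these data known, and no set test was run. The values of 1 list member are not reported here.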

Additional observations from a re-analysis of the deposited data

How the results depend on the processing

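No Fc gamma receptor gene was called under any of the 16 other settings, and the lowest adjusted p was 0.739, for Fcgr2b with limma voom. Of 80 values of the 5 genes under these settings, 66 kept their sign and 14 did not. With library totals as scaling, which moved the median of all genes from 0.021 to 0.079, Fcgr1 had a log2 fold change of 0.020 and Fcgr3 of 0.034. Fcgr4 had 0.016 in limma voom with library weights, and Fcer1g -0.0095 in limma voom. Without both shallow libraries (control 3 and knockout 2) Fcgr3 had 0.079, Fcgr4 0.0068 and Fcer1g -0.12. With 1 library left out at a time, log2 fold changes ran from -0.17 to 0.095 for Fcgr1, -0.23 to 0.082 for Fcgr3, -0.45 to -0.065 for Fcgr4, -0.26 to -0.0040 for Fcgr2b and -0.062 to 0.16 for Fcer1g. The sign changed for Fcgr1 without control 2 or knockout 2, for Fcgr3 without control 2, knockout 1 or knockout 2, and for Fcer1g without control 3 or knockout 2. Of 43 ratio differences under other settings, 42 kept their sign; Fcgr4 to Fcgr2b was 0.21 without control 3 and ran from -0.33 to 0.21 over libraries left out. Fcgr1 to Fcgr2b stayed between 0.089 and 0.11.

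Counts over all genes moved more, and the cause was not tested. Against 7 genes called, 5 higher and 2 lower, the counts were 102 (60 and 42) without a filter, 83 (49 and 34) with DESeq2, 15 (9 and 6) with limma voom, 4 (2 and 2) with voom and library weights, 2 (1 and 1) without the robust option and 39 (9 and 30) without both shallow libraries. Leaving out 1 library gave 2 to 50 calls, 1 to 15 higher and 1 to 35 lower, with 50 reached without control 3. Of the signalling lists, 1 gene was called without a filter (Pirb) and 2 with DESeq2 (Prkcd and Pirb), against 0. Of 112 list medians, 2 moved by more than the spread between libraries, both without knockout 3: -0.23 for lipid messenger enzymes and -0.19 for inhibitory genes.

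The titles number the replicates within each group and name no pairs. Deviations of same-numbered libraries from their group means had correlations across genes of 0.30, -0.22 and -0.058. Controls 2 and 3 did not correlate best with their own number, and control 3 and knockout 2, both shallow, had 0.29. Such correlations cannot exclude a pairing of mice, for instance by litter. With the replicate block 25 genes were called, 16 higher and 9 lower, and 0 of the Fc gamma receptor genes; the exact p of the Fcgr1 to Fcgr2b ratio was then 0.25.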
